A study of Rattus norvegicus with 9 samples.

Results

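The comparison of total lipids (TLs) with vehicle in rat bone-marrow derived dendritic cells (BMDCs) was described across all genes that passed a filter on low counts, 12602 of the 32545 genes counted, in 6 of the 9 libraries of the series. The TL group (3 libraries) received lipids extracted from Lactobacillus johnsonii N6.2, a Gram-positive gut bacterium, at 600 ng/mL in PBS. The vehicle group (3 libraries) received DMSO diluted in PBS. A further 3 libraries came from cells given synthetic a-GalCer, a glycolipid ligand of CD1d, at 100 ng/mL in the same solvent as the vehicle. They serve here as a second set of libraries without TL. All groups shared the rest of the design, namely marrow of WT rats (Sprague-Dawley, 8 to 12 weeks old per the study's methods), 7 days of culture with rat GM-CSF and human FLT3-L, and 6 h of stimulation. The TL wells held no DMSO, so TL and the absence of DMSO cannot be told apart in either contrast. The labels do not say that replicates came from separate animals, and the study calls them independent assays. If they are technical, the p-values measure that spread alone.

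Dendritic cells and macrophages carry pattern recognition receptors, the Toll-like receptors among them, that bind bacterial lipids and lipoproteins. Their signal frees the transcription factor NF-kB from its inhibitors and activates AP-1, and both factors bind near the start sites of cytokine and chemokine genes. Some of these genes are already transcribed at a low level in a resting cell, while others stay silent until a stimulus arrives. An mRNA library reports shares of a fixed number of reads, so a gene can gain counts only if others lose them. A share of counts also grows with the length of a transcript and is no number of molecules. Fewer cells of a type and less RNA per cell cannot be told apart in these bulk libraries, and in mouse such cultures are known to hold macrophages beside dendritic cells.

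With TL 1231 genes were called higher and 1219 lower than with vehicle. A call required a log2 fold change beyond 0.3 in either direction and an adjusted p (Benjamini-Hochberg) below 0.01 in edgeR's quasi-likelihood test. The background is therefore 9.77% of tested genes called higher and 9.67% called lower, 19.4% in all, and 5368 genes had an unadjusted p under 0.05. The 3 TL libraries lay above all 3 vehicle libraries for 2799 genes (22.2%) and below them for 3010 genes (23.9%). All 1231 genes called higher were among the 2799, and 1218 of the 1219 called lower were among the 3010. Most changes were small. The median log2 fold change was 0.66 over the genes called higher and −0.64 over those called lower, against −0.02 over all genes tested. The tail was longer on the side of the rises: 30 genes were called higher with a log2 fold change of 4 or more (16-fold) and 2 were called lower by as much. The balance of directions depends on scaling. With upper quartile normalization 1002 genes were called higher and 1614 lower, so that 38.3% of the calls were rises, against 50.2% with TMM.

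In these bulk libraries the counts gained with TL came almost wholly from graded rises in genes that were already on. Higher levels per cell and more cells that express a gene cannot be told apart here. Summed over the genes called higher, the level rose by 94412 CPM (counts scaled by the library total). The 882 genes called higher by less than 2-fold held 47.7% of that gain, and the 30 genes called higher by 16-fold or more held 17.6%. Between them, 243 genes that rose 2 to 4-fold held 22.3% and 76 genes that rose 4 to 16-fold held 12.4%. The losses lay almost wholly in small falls: 39358 CPM were lost over the genes called lower, and the 959 genes that fell by less than 2-fold held 88.7% of it. A further 10.4% was lost over 216 genes that fell 2 to 4-fold. Over genes tested and not called, the net of small differences was −55004 CPM. These sums rest on genes chosen by the same contrast and are descriptions. On TMM-normalized CPM the gain was 114604 and the loss 32488.

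**Figure D1:**
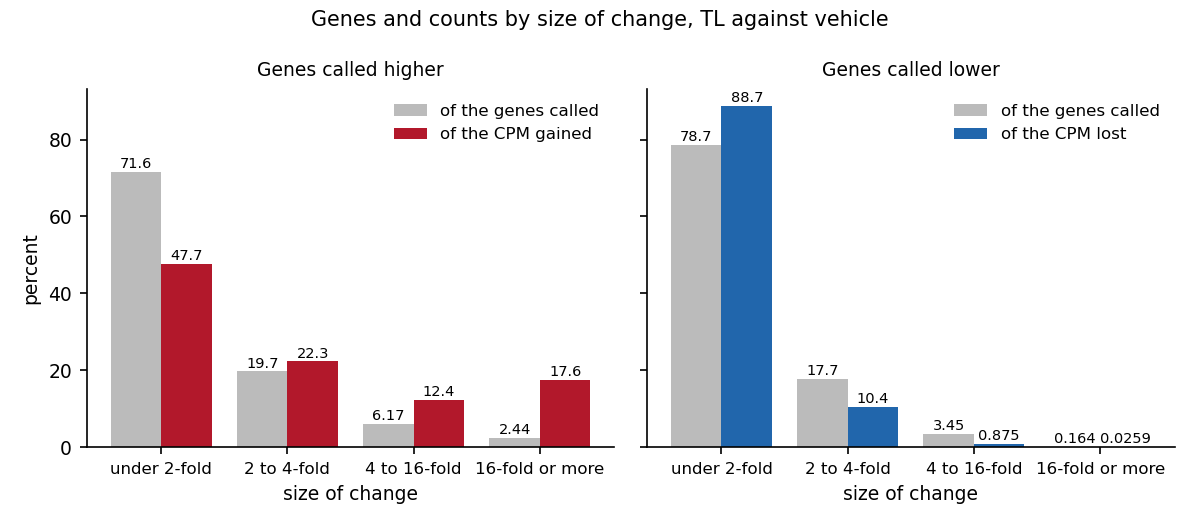
Bars give the percent of called genes (grey) and the percent of the CPM gained or lost (colour) in 4 classes of fold change, TL against vehicle, with genes called higher on the left and genes called lower on the right. Changes under 2-fold hold 47.7% of the gain and 88.7% of the loss, and changes of 16-fold or more hold 17.6% of the gain and 0.0259% of the loss.

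Gain and loss were spread over many genes. The gene with the largest gain held 6.19% of it and that with the largest loss 7.57% of the loss. The 10 genes with the largest gains held 24.2% of it, and the 10 with the largest losses held 21.7% of the loss. At 100 genes these shares were 61.6% of the gain and 51.7% of the loss, and at 500 genes 91.1% and 85.1%. The 32 cytokine and chemokine genes called higher held 19.8% of the gain, 8108 CPM for cytokines and 10618 CPM for chemokines. Without TL replicate 2 the smallest set of genes that held 0.5 of the loss was 58, against 90 with all libraries.

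The largest gain was that of Il1b, the gene of the cytokine interleukin-1 beta, which had 6342, 6572 and 6249 CPM (TMM-normalized, as all single-gene levels here) in the TL libraries, against 135, 174 and 129 CPM with vehicle (log2 fold change 5.45, standard error 0.12, edgeR adjusted p = 1.43e-10). Cxcl3, a chemokine gene whose product attracts neutrophils, had 3423, 3628 and 3597 CPM with TL and 133, 162 and 135 CPM with vehicle. Sod2, the mitochondrial superoxide dismutase, had 2723, 2916 and 2919 CPM with TL and 628, 726 and 604 CPM with vehicle. Each gene of this set was on in every vehicle library. Genes were named by rule only where TL and vehicle libraries do not overlap, which held for 46.1% of tested genes. Cd14, a co-receptor for bacterial lipids, had 2388 to 2436 CPM with TL and 425 to 493 CPM with vehicle. Ccl2, a chemokine gene for monocytes, had 2512 to 2602 CPM with TL and 764 to 947 CPM with vehicle. Its log2 fold change was 1.60 (standard error 0.082), and its gain of 1530 CPM of the library total exceeded that of Il1a (1502 CPM), a gene with a far steeper rise (6.06 on the log2 scale, standard error 0.11). One gene without a symbol here, ENSRNOG00000030187, was also among the large gains, with 6019 to 6091 CPM with TL and 2977 to 3141 CPM with vehicle.

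Genes called higher with TL held 24.4% of all counts in each TL library (24.4 ± 0.025%, SD, n = 3), against 15.0 ± 0.27% with vehicle and 15.0 ± 0.26% with a-GalCer. Genes called lower held 6.16 to 6.24% with TL, against 10.1 ± 0.19% with vehicle and 10.2 ± 0.031% with a-GalCer. The 349 genes that rose by a log2 fold change of at least 1 held 6.87% with TL and 1.93% with vehicle. The 260 genes that fell by as much held 0.262% with TL and 0.707% with vehicle. The contrast chose these genes, so no test was made of the shares. The a-GalCer libraries took no part in the contrast itself, though they entered the shared estimate of spread of single genes.

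**Figure D2:**
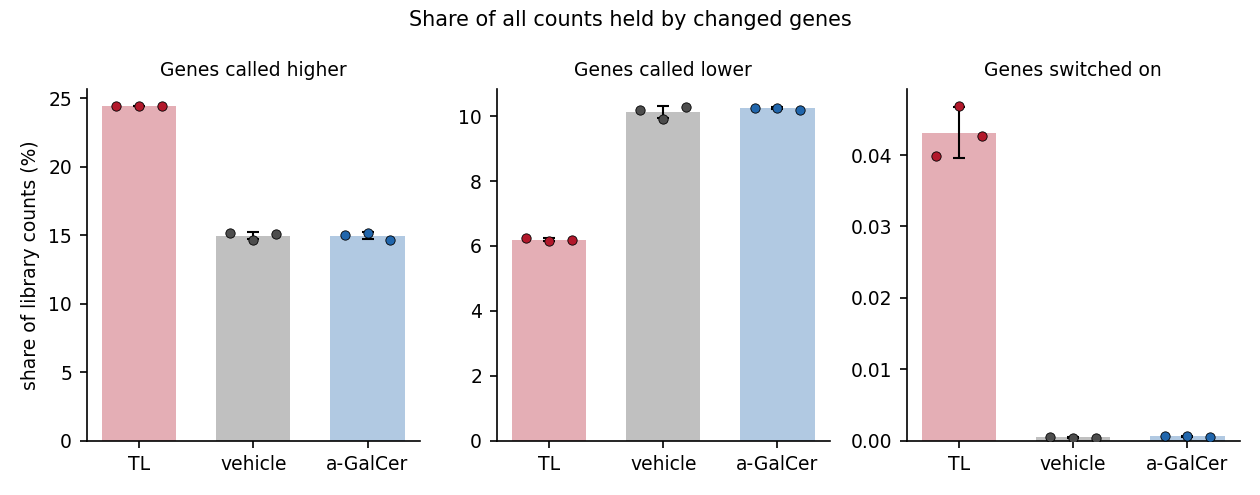
Each point is 1 library and each bar the mean of 3 with its SD, in percent of all counts of the library, for genes called higher (left), called lower (middle) and switched on (right, on its own axis). TL libraries hold 24.4% of counts in genes called higher, against 15.0% with vehicle and with a-GalCer, while switched-on genes hold 0.0432% with TL.

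Measures that do not use the calls moved in the same libraries. The effective number of genes, the exponential of the entropy of the count shares, was 3366 ± 19 with TL and 3590 ± 171 with vehicle (SD, n = 3 each). Genes at 1 CPM or more numbered 11496 ± 10 with TL and 11694 ± 38 with vehicle. For both the exact two-sided permutation p was 0.1, the smallest that 3 against 3 libraries can give. The 100 highest genes of a library held 22.8 ± 0.12% of its counts with TL and 21.7 ± 0.94% with vehicle (exact permutation p = 0.2), while the 10 highest held 6.46% with TL and 7.08% with vehicle. Vehicle replicate 2 stood apart from the other vehicle libraries, with an effective number of 3393 against 3685 and 3692, and a score of −32.6 on the second principal component against 15.6 and 14.9. Without it the difference in the effective number, TL minus vehicle, was −322 in place of −224, and 1345 genes were called higher and 1361 lower. The totals were 15190820 to 20591105 counts with TL and 16357236 to 17729881 with vehicle, and 3 counts in a library correspond to 0.146 to 0.197 CPM.

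Calls were spread over levels of expression. Genes were grouped by their mean CPM in the a-GalCer libraries, which neither side of the contrast uses. Of 905 genes at 200 CPM or more, 159 were called higher and 84 lower with TL. Of 4350 genes between 10 and 50 CPM, 408 were called higher and 551 lower, and of 2311 between 2 and 10 CPM, 134 and 191. The median log2 fold change of the genes called higher was 0.54 at 200 CPM or more, 0.63 between 10 and 50 CPM and 1.21 between 2 and 10 CPM. At lower levels a gene needs a larger change to be called. Genes at 200 CPM or more held 44.2% of the gain and 48.3% of the loss, and those between 50 and 200 CPM 37.8% and 33.5%. The genes under 0.5 CPM held 0.562% of the gain. Those 221 genes passed the filter mostly through the group where they were high, so their share of calls is no result.

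**Figure D3:**
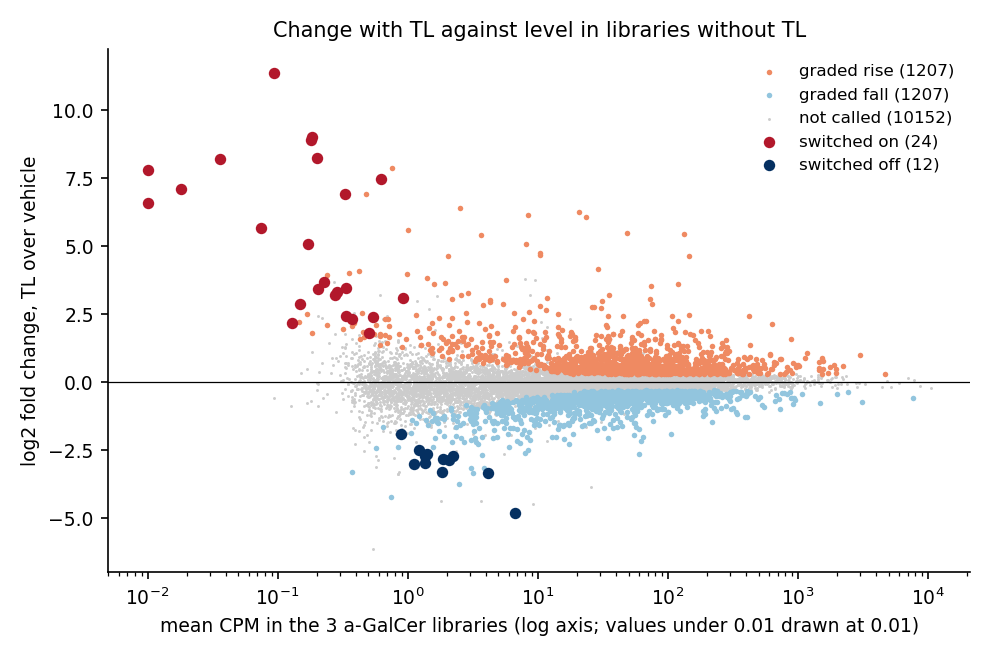
Each point is 1 of 12602 genes, with its mean CPM in the 3 a-GalCer libraries on a log axis and its log2 fold change, TL over vehicle. Small changes fill the range above 10 CPM, the 24 switched-on genes lie at the far left with log2 fold changes of 1.81 to 11.37, and the 12 switched-off genes reach −4.81.

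Genes that went from silent to on were few. A gene was called switched on where it was called higher, lay under 0.5 CPM in every vehicle library and reached at least 1 CPM in every TL library. This held for 24 of the 1231 genes called higher, and the other 1207 were graded rises. The 24 genes held 0.0432% of counts with TL and 0.000450% with vehicle, and 0.452% of the total gain. Their median level with TL was 3.31 CPM, 8 of them reached 10 CPM and 3 reached 50 CPM. All 3 a-GalCer libraries were also under 0.5 CPM for 18 of them. Such genes can enter the test only through the TL or a-GalCer libraries, so 24 of 56 tested genes silent with vehicle is no rate of switching. With silence set at under 0.25 CPM the number was 12.

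The 7 highest of the 17 switched-on genes with a symbol were all cytokine or chemokine genes. Csf3, which encodes G-CSF, the growth factor of neutrophils, had 2976, 2657 and 2545 counts in the TL libraries, against 1, 0 and 2 with vehicle, a ratio of 2696 (95% counting interval 922 to 13078). Csf2, which encodes GM-CSF, had 410, 399 and 314 counts with TL and 0, 2 and 0 with vehicle, a ratio of 555 (interval 153 to 4592). Il6 had 1900, 1778 and 1386 counts with TL and 7, 2 and 2 with vehicle. No TL library came near a vehicle library in any of these. Cxcl6, whose product attracts neutrophils, had 51.7, 55.2 and 52.0 CPM with TL and 0.234, 0.454 and 0.171 CPM with vehicle. Il17f, the gene of an interleukin-17 family cytokine, had 24.4, 25.0 and 22.8 CPM with TL and 0.0585, 0.170 and 0.343 CPM with vehicle. Both lay under the limit in every vehicle library, as the rule for switched-on genes requires. Il10, the gene of an anti-inflammatory cytokine, had 13.0, 13.0 and 14.7 CPM with TL and 0.351, 0.0568 and 0 CPM with vehicle. Ccl20, the ligand of the receptor CCR6, had 12.5, 10.8 and 11.0 CPM with TL and 0, 0.227 and 0 CPM with vehicle. The next in level were far lower. Cmahp had 3.00 to 3.71 CPM with TL and 0.228 to 0.351 CPM with vehicle, and Fjx1 2.33 to 4.32 CPM with TL and 0.284 to 0.468 CPM with vehicle. With a-GalCer Fjx1 reached 1.31 CPM, Cxcl6 0.979 CPM and Il17f 0.598 CPM, so these were not silent in every library without TL. Sfrp2, a secreted Wnt modulator, had 44, 38 and 21 counts in the TL libraries and 0 in each vehicle library. Among IDs without a symbol here, ENSRNOG00000006320 had 17.1, 20.5 and 20.9 CPM with TL and 0.0585, 0.0568 and 0.0571 CPM with vehicle.

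**Figure D4:**
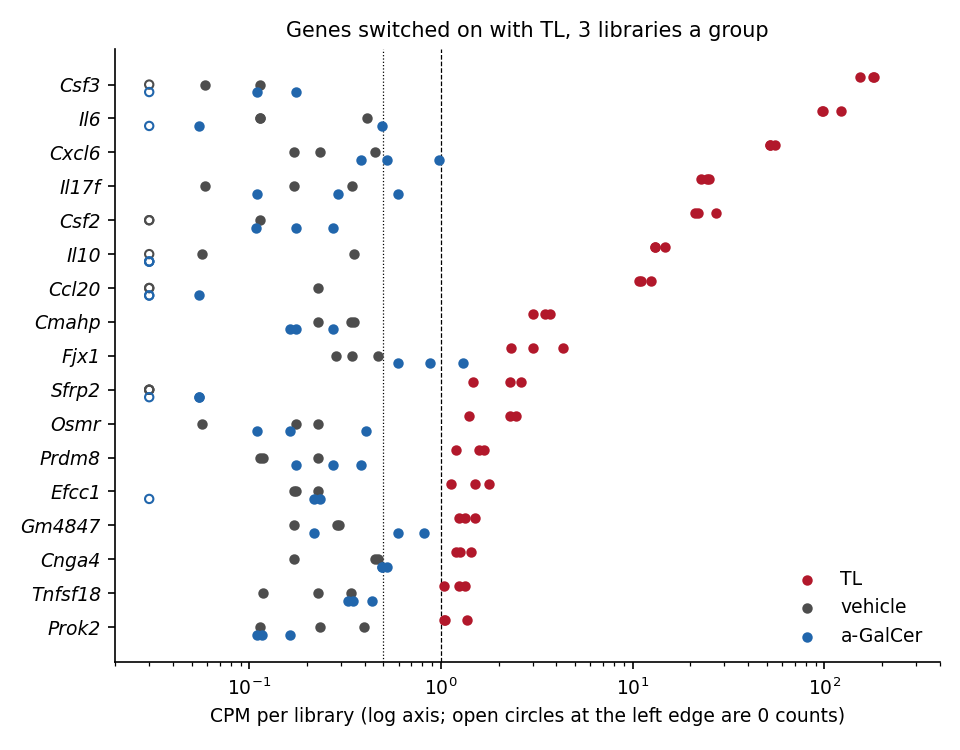
Points give the CPM in each TL, vehicle and a-GalCer library (log axis, open circles for 0 counts) of the 17 switched-on genes with a symbol, ordered by level with TL; the dotted line marks 0.5 CPM and the dashed line 1 CPM. Csf3 reaches 154 to 182 CPM with TL, 7 genes lie above 10 CPM with TL and the other 10 lie between 1 and 4.32 CPM.

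The limit of silence divides a continuum. Mmp13, a collagenase, counted as graded because 1 vehicle library held 1.19 CPM and the others 0.644 and 0.628, yet it had 208, 204 and 182 CPM with TL (log2 fold change 7.90, standard error 0.20, edgeR adjusted p = 4.38e-10). Fst, the gene of the activin antagonist follistatin, reached 0.702 CPM in a vehicle library and had 4.55 CPM or more with TL. Wfdc21 reached 0.511 CPM with vehicle and had at least 4.81 CPM with TL. These last were named after their values were seen, as genes just outside the limit. Just inside it, Fjx1 reached 0.468 CPM in a vehicle library.

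Switching off was rarer and took place at low levels. By the mirrored rule 12 genes were switched off, and with silence under 0.25 CPM none was. Clec4a, an inhibitory C-type lectin receptor of dendritic cells, had 0.362, 0.411 and 0.420 CPM with TL, against 3.52 to 4.57 CPM with vehicle (log2 fold change −3.32, standard error 0.23, edgeR adjusted p = 1.25e-06). Cidec, a lipid droplet protein gene, had 0.274 to 0.350 CPM with TL and 1.99 to 2.46 CPM with vehicle. Abcd2, a peroxisomal fatty acid transporter gene, had 0.103 to 0.343 CPM with TL and 1.81 to 1.99 CPM with vehicle. En2, Kazald1 and Cfap43 had vehicle means under 2.5 CPM as well. All 12 together fell by 28.2 CPM of the library total. ENSRNOG00000049330, the largest fall among them, had 0.155, 0.411 and 0.420 CPM with TL and 2.69, 10.8 and 13.6 CPM with vehicle.

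Among graded genes with at least 10 CPM in every vehicle library, the chemokine gene Cxcl1 had the steepest rise, with 1390, 1529 and 1452 CPM with TL and 17.3, 22.6 and 16.9 CPM with vehicle (log2 fold change 6.26, standard error 0.12, edgeR adjusted p = 8.01e-11). Il1a, an interleukin-1 stored in the cell, had 1675, 1617 and 1595 CPM with TL and 26.7, 23.2 and 23.0 CPM with vehicle. Cxcl2 had 1954, 2093 and 2069 CPM with TL and 39.9, 52.7 and 44.7 CPM with vehicle. The groups lay far apart for all of them. Ccl4 and Ccl3, chemokine genes of activated macrophages, had log2 fold changes of 4.15 (standard error 0.10) and 3.63 (standard error 0.090). Cxcl1, Cxcl2 and Cxcl3 are close paralogs, and how reads common to them were counted is not given in the sources used here, so the split between them is uncertain. Of 16 chemokine genes tested 15 rose and 0 fell, with a median log2 fold change of 2.46; Ccl5 had 0.842 ± 0.28 CPM with TL and 0.134 ± 0.032 CPM with vehicle and was not called (adjusted p = 0.012). Of 18 cytokine genes 17 rose and 1 fell (median 3.44), and they include Inhba, a subunit of activin, at 261 ± 11 CPM with TL and 9.80 ± 3.2 CPM with vehicle. Gene symbols came from a table that lists only genes the study had called against vehicle, so no count over a list is independent of those calls. Listed genes without a symbol there dropped out, so a list count covers only a part of its genes. Of the 1839 tested genes with a symbol, 38.9% were called higher and 37.7% lower, against 9.77% and 9.67% of all tested genes, and each list count has to be read against the shares of genes with a symbol.

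Promoters of 5 rising chemokine and cytokine genes are shown because they carry a kB-like stretch, which 4 of 10 matched chemokine promoters and 1 of 10 matched cytokine promoters held, read on either strand as 3 G, any 2 bases, 3 T and 2 C, in the 250 bases before the RefSeq start site (capitals; rat assembly GRCr8, while the counts were made on Rnor_6.0).
Il6 upstream, chr4:5894576-5894825 (minus strand): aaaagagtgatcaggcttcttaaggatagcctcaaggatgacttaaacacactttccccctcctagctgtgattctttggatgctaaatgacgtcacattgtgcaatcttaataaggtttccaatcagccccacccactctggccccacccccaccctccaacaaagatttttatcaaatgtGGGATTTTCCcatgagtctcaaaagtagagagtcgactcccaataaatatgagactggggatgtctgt
Cxcl6 upstream, chr14:17596418-17596667 (minus strand): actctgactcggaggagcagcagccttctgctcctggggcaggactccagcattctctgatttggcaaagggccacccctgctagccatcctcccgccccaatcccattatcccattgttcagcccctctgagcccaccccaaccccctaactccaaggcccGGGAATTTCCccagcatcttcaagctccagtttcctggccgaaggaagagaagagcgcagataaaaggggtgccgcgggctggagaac
Ccl20 upstream, chr9:91836909-91837158 (plus strand): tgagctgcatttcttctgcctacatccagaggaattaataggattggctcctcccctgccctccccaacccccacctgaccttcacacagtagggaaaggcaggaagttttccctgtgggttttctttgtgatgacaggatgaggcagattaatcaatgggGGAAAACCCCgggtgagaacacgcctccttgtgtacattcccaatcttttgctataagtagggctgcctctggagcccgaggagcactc
Cxcl1 upstream, chr14:17479322-17479571 (minus strand): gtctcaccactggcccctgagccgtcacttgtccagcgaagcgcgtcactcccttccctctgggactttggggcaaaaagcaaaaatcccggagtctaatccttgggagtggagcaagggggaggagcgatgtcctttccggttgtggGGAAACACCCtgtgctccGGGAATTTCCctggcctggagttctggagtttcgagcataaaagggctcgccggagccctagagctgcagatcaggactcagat
Cxcl2 upstream, chr14:17467256-17467505 (minus strand): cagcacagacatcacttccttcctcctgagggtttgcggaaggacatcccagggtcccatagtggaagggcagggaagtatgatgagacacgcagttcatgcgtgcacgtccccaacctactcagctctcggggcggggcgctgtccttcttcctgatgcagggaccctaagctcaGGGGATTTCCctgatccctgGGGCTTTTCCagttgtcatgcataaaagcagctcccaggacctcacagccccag

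Counted from the start site, the stretch began 68 bases upstream in Il6, 88 in Cxcl6, 89 in Ccl20, 102 and 84 in Cxcl1 and 74 and 54 in Cxcl2. It also lay upstream of Lipa, which fell, and of Nfkbiz and Nfkbia, which rose. The matched promoters of Il1b and Il1a, both called higher, did not hold it. Of 1839 tested genes with a symbol, 1401 matched 1 RefSeq promoter of 300 bases (250 before and 50 after the start), 13 of the 17 switched-on genes among them. The kB-like stretch was present in 3 of those 13, in 12.7% of 55 genes called higher with a log2 fold change of at least 2, in 4.02% of 522 genes called higher, in 1.29% of 544 genes called lower and in 1.53% of all 33469 RefSeq promoters of that length. None of the 5 promoters shown held another of the letter patterns searched on both strands, namely AP-1-like TGANTCA, the TATA letters TATAAA, an ISRE-like pair of GAAA with any 2 bases between them, E2F-like TTTGGCGC or TTTCCCGC, and the SRE-1 letters. The letters describe the window and show no binding. TATAAA occurred in 27.3% of the 55 promoters, 5.70% of those of genes called lower and 14.2% of all. Over the 1401 matched promoters of tested genes the kB-like share was 2.43% and the TATAAA share 7.35%.

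Genes of the NF-kB pathway and its brakes that could be followed rose, by less. All 14 members tested rose, with a median log2 fold change of 1.22, and 0 fell. The list held 19 genes, and symbols came only from genes the study had called. Of all tested genes with a symbol, 38.9% were called higher. Zc3h12a, a nuclease that degrades cytokine mRNA, had 323, 333 and 354 CPM with TL and 34.7, 38.0 and 37.8 CPM with vehicle. Nfkbiz, a nuclear inhibitor-like cofactor, had 250, 262 and 258 CPM with TL and 31.4, 31.8 and 32.7 CPM with vehicle. Nfkbia, which encodes the inhibitor IkB alpha, had 444 to 489 CPM with TL and 122 to 142 CPM with vehicle. Of the subunit genes, Nfkb1 had a log2 fold change of 1.29 and Rela of 0.51. Of 17 immediate early and stress transcription factor genes 12 rose and 2 fell (median 0.79). Ier3 had 283 to 314 CPM with TL and 56.8 to 71.0 CPM with vehicle, and Fosl1, an AP-1 subunit gene, had 32.3 to 33.1 CPM with TL and 7.60 to 9.99 CPM with vehicle. Those that fell were Myc, the growth regulator, at 139 ± 3.6 CPM with TL and 229 ± 6.3 CPM with vehicle, and Egr2, at 115 ± 2.4 CPM with TL and 171 ± 3.0 CPM with vehicle (SD, n = 3).

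Most genes of matrix proteolysis that could be followed rose, while the gene of a plasminogen activator fell. Of 24 listed genes of matrix and pericellular proteolysis 16 were tested, of which 12 rose and 3 fell (median log2 fold change 1.93). Mmp9, a gelatinase, had 914, 944 and 954 CPM with TL and 75.7, 83.5 and 81.2 CPM with vehicle (log2 fold change 3.55, standard error 0.074, edgeR adjusted p = 1.36e-10). Serpinb2, which encodes an inhibitor of plasminogen activators, was far higher with TL (log2 fold change 6.41, standard error 0.18). Plau, the gene of urokinase, had 18.8, 17.6 and 18.0 CPM with TL and 58.8, 56.1 and 62.1 CPM with vehicle, a change of −1.70 on the log2 scale (standard error 0.074), while its receptor gene Plaur had 414 ± 33 CPM with TL and 168 ± 14 CPM with vehicle. Mmp19 and Adam19 were the others that fell.

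Glycolysis and hypoxia genes that could be followed rose by moderate amounts. Of 28 listed genes 14 were tested, of which 13 rose and 0 fell, with a median log2 fold change of 0.96. Symbols came only from genes the study had called, and 38.9% of all tested genes with a symbol were called higher. Slc2a1, the glucose transporter GLUT1, had 703, 729 and 766 CPM with TL and 263, 278 and 256 CPM with vehicle (log2 fold change 1.46, standard error 0.056). Slc16a3, a lactate exporter, had 292, 301 and 321 CPM with TL and 91.5, 102 and 83.1 CPM with vehicle. Hif1a, the oxygen-sensitive transcription factor, had 312 to 315 CPM with TL and 105 to 126 CPM with vehicle. The group held 1.19% of the gain. Of 12 genes of the tricarboxylic acid cycle and fatty acid oxidation 5 fell and 0 rose (median −0.30), and the share that fell (5 of 12) is near the 37.7% of all tested genes with a symbol. Idh2 had the smallest adjusted p of these, with 106, 105 and 106 CPM with TL and 160, 180 and 166 CPM with vehicle.

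The genes with the largest losses stayed abundant. Gpnmb, a glycoprotein gene of lysosome-rich macrophages, fell by 2980 CPM of the library total, 7.57% of the loss, with 4976, 4996 and 4931 CPM with TL and 7343, 7500 and 7455 CPM with vehicle (log2 fold change −0.58, standard error 0.036, edgeR adjusted p = 5.74e-07). Spp1, which encodes osteopontin, had 1916, 1973 and 1779 CPM with TL and 3016, 3464 and 2979 CPM with vehicle. Mfge8, whose product bridges phagocytes to dying cells, had 1528 to 1545 CPM with TL and 1997 to 2275 CPM with vehicle. These genes fell by less than 2-fold. Laptm5, a lysosomal membrane protein gene, had a smaller change (log2 fold change −0.37, standard error 0.052) and fell by 728 CPM of the library total. Csf1r, the receptor for M-CSF, had 615, 607 and 615 CPM with TL and 941, 883 and 946 CPM with vehicle. Sdc3 and Stom were also among the 8 largest losses with a symbol, with log2 fold changes of −0.97 (standard error 0.065) and −0.58 (standard error 0.066). ENSRNOG00000052219, without a symbol here, had 844 to 858 CPM with TL and 1404 to 1523 CPM with vehicle.

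Of 13 macrophage and resident phagocyte genes 9 fell and 3 rose, with a median log2 fold change of −0.58. Mrc1, the mannose receptor gene, had 188, 188 and 180 CPM with TL and 460, 397 and 483 CPM with vehicle (log2 fold change −1.27, standard error 0.071). Axl, a receptor for dying cells, had 160 to 171 CPM with TL and 296 to 331 CPM with vehicle. Among the members that rose were Adgre1, which encodes F4/80, with 66.1, 61.8 and 71.9 CPM with TL and 21.1, 18.2 and 18.3 CPM with vehicle, and the transcription factor gene Maf (log2 fold change 1.02). Over the alternatives 5 to 10 of the 13 fell, the lowest without TL replicate 3. The 9 genes that fell held 10.0% of all CPM lost, most of it Gpnmb. Of 40 listed lysosome genes 24 were tested, of which 14 fell, 2 rose and 8 were not called (median −0.42). The macrophage list held 20 genes before those without a symbol dropped out. Of all tested genes with a symbol, 37.7% were called lower and 38.9% higher. Lipa, the lysosomal acid lipase, had 577, 544 and 532 CPM with TL and 967, 951 and 961 CPM with vehicle. Lgmn, a lysosomal protease gene, had 589 to 604 CPM with TL and 852 to 975 CPM with vehicle, while Neu1, a sialidase, rose (log2 fold change 0.79) and Lamp1 had 1362 ± 11 CPM with TL and 1356 ± 75 CPM with vehicle.

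Of 19 G protein-coupled and lectin receptor genes of phagocytes, 7 were called higher and 10 lower (median log2 fold change −0.84). The share called higher is near the 38.9% of all tested genes with a symbol, of which 37.7% were called lower. Clec10a, a lectin receptor of dendritic cells and macrophages, had 15.2, 14.4 and 13.3 CPM with TL and 50.2, 57.9 and 55.7 CPM with vehicle. Cmklr1, the chemerin receptor, had 109, 99.2 and 105 CPM with TL and 34.5, 34.5 and 36.3 CPM with vehicle. P2ry12 had 0.0691 ± 0.069 CPM with TL and 0.726 ± 0.32 CPM with vehicle and was not called (adjusted p = 0.012). The steepest graded falls over the level of 10 CPM were in genes of varied function. Cyp2s1, a cytochrome P450, had 8.59, 9.32 and 11.9 CPM with TL and 63.9, 56.4 and 63.3 CPM with vehicle (log2 fold change −2.63, standard error 0.11). Mnda had 13.5 to 15.6 CPM with TL and 58.9 to 67.0 CPM with vehicle, and Id3, an inhibitor of basic helix-loop-helix transcription factors, had 7.19 to 9.25 CPM with TL and 32.2 to 34.3 CPM with vehicle. Prrt1, Aqp3, Gask1b, Prickle2 and Gpr155 had log2 fold changes between −2.26 and −1.99. No gene at 200 CPM or more with a-GalCer fell by 4-fold.

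Genes of DNA replication that could be followed fell in a narrow range. Of 41 listed genes 29 were tested, of which 28 fell and 0 rose. The median log2 fold change was −0.70, with single values between −1.33 and −0.24. Rfc1, with the smallest change, was not called. Genes the study did not call carry no symbol here and are missing from these values. Of all tested genes with a symbol, 37.7% were called lower. Mcm6, a subunit of the replicative helicase, had 56.0, 58.1 and 56.1 CPM with TL and 103, 115 and 109 CPM with vehicle (log2 fold change −0.94, standard error 0.060, edgeR adjusted p = 6.26e-07). Mcm2 had 55.5, 61.7 and 59.9 CPM with TL and 110, 109 and 116 CPM with vehicle. Mcm5 had 86.0, 85.5 and 85.2 CPM with TL and 138, 136 and 141 CPM with vehicle. Every TL library lay below every vehicle library for these, as the rule for naming genes required. Mitosis genes changed less: 13 of 22 fell and 0 rose (median −0.36), and over the alternatives the number that fell ran from 4 to 17, the lowest without TL replicate 2. The number that fell was 4 to 8 without any 1 library other than vehicle replicate 2 or with only the 6 TL and vehicle libraries, and 15 without vehicle replicate 2. Mki67, a marker of cycling cells, had 147, 125 and 131 CPM with TL and 229, 170 and 214 CPM with vehicle. The lowest vehicle value of Mki67 came from vehicle replicate 2. Whether fewer cells were in cycle was not tested.

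The promoters of 3 helicase subunit genes are shown for the E2F-like stretch, TTTGGCGC or TTTCCCGC read on either strand (capitals), which E2F factors of the cell cycle are known to bind.
Mcm5 upstream, chr19:13488563-13488812 (plus strand): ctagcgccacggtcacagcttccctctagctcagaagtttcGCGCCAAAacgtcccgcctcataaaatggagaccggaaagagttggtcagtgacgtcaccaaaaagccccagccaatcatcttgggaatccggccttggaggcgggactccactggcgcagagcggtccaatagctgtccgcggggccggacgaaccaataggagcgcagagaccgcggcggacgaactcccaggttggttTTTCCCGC
Mcm6 upstream, chr13:42404353-42404602 (minus strand): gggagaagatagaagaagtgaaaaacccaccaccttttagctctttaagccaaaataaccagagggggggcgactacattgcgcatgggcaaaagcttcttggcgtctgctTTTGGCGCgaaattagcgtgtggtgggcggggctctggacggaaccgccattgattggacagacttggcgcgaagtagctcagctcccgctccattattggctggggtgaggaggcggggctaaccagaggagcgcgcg
Mcm7 upstream, chr12:22163179-22163428 (minus strand): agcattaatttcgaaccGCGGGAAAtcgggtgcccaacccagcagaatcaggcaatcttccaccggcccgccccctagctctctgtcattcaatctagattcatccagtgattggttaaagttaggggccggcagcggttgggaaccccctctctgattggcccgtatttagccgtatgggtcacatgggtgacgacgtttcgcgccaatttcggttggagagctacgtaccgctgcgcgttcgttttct

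The stretch began 209 and 8 bases upstream of the start in Mcm5, 139 in Mcm6 and 233 in Mcm7. It was found in 11 of 26 promoters of the DNA replication list (42.3%) and in 4.07% of the 1401 matched promoters of tested genes. The share was 6.25% for genes called lower, 1.15% for genes called higher and 1.45% for all RefSeq promoters of that length. These shares, like those of the kB-like letters, are descriptions.

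Of 24 listed genes of sterol synthesis and uptake only 10 could be followed, of which 7 fell and 0 rose (median log2 fold change −0.42). Symbols came only from genes the study had called, and 37.7% of all tested genes with a symbol were called lower. Dhcr7, which encodes the last enzyme of one branch of cholesterol synthesis, had 16.7, 19.1 and 15.5 CPM with TL and 35.9, 38.7 and 37.2 CPM with vehicle. Cyp51 had 141 to 155 CPM with TL and 212 to 231 CPM with vehicle. Chaperones of the endoplasmic reticulum did not move as a group: 3 of 12 rose, 1 fell and 8 were not called (median 0.11). P4hb, a disulfide isomerase, rose with 3130, 3019 and 3063 CPM with TL and 1951, 2102 and 1951 CPM with vehicle, and Xbp1, a transcription factor of the unfolded protein response, fell (log2 fold change −0.45). Upper quartile normalization moved the median of all genes to −0.09 and turned none of the list medians named here.

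**Figure D5:**
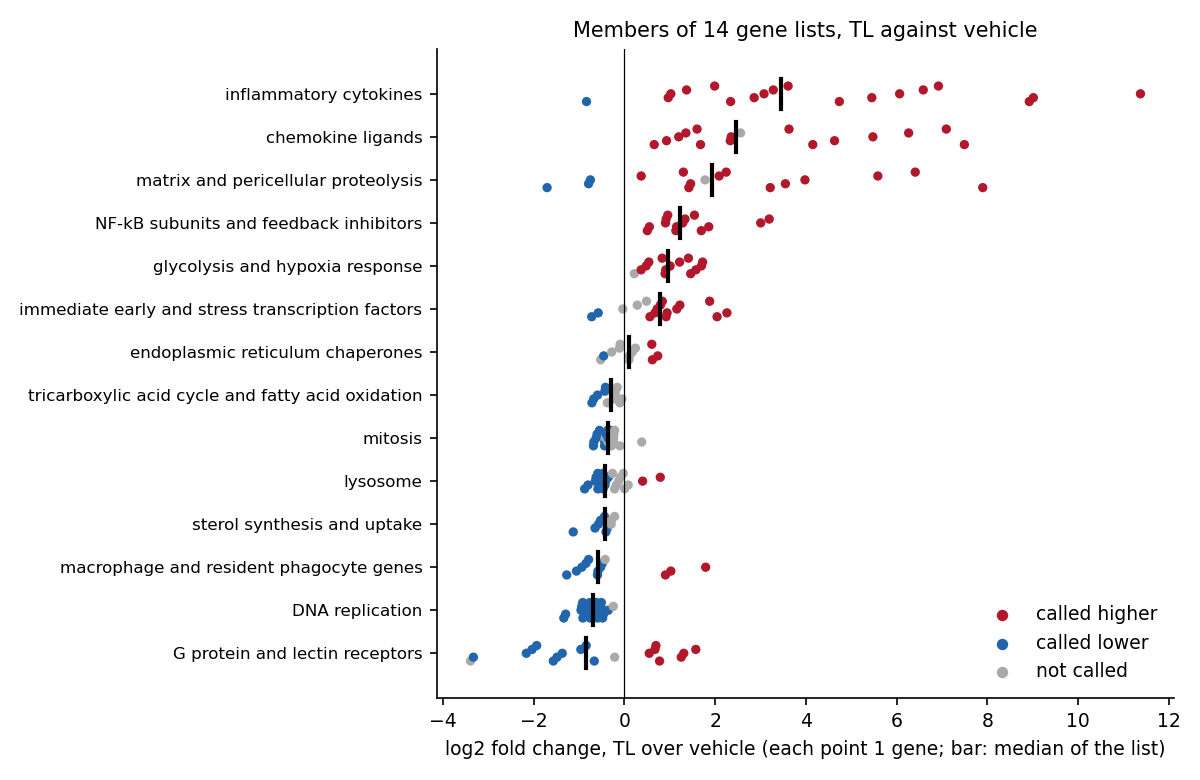
Each point is the log2 fold change, TL over vehicle, of 1 gene in 14 lists; red points were called higher, blue points lower, grey points neither, and the bar is the median of the list. Only listed genes with a symbol could be drawn. Cytokines (median 3.44) and chemokines (2.46) extend to 11.37 and 7.49, while the DNA replication genes tested lie between −1.33 and −0.24.

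Symbols came only from genes the study had called, so a marker it did not call could not be followed. The values of dendritic cell markers therefore cannot settle the label of the cells. Of 8 such genes 5 could be followed here: Itgax (CD11c) had 666 CPM with TL and 457 CPM with vehicle, Itgam (CD11b) 765 CPM with TL and 495 CPM with vehicle, and Irf8 182 CPM with TL and 224 CPM with vehicle. Both integrin genes rose, and Irf8, Ciita and Clec10a fell. Among markers of other cells, Mpo of neutrophil precursors had 432 CPM with TL and 502 CPM with vehicle and was not called, while Cebpe fell, with 16.1 CPM with TL and 27.2 CPM with vehicle, and Gata2 of mast cells fell, with 10.4 CPM with TL and 17.8 CPM with vehicle. Markers of T cells, B cells, NK cells, erythroid cells and fibroblasts were not analysed here, since none was paired with an ID. A part of such cells in these values was not tested.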

How the data were processed

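mRNA was selected with poly-T beads and made into NEBNext Ultra libraries, a kit that does not mark strand, so overlapping and antisense genes cannot be told apart. The authors trimmed with fastp, aligned with HISAT2 (the labels name Rnor_6.0) and deposited raw counts per Ensembl gene from featureCounts. Versions and counting settings are not given in the sources used here. Other columns of per-sample values were not present. The authors' corrected values and their fold changes, which are also in the table used for symbols, were not used.

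Counts of all 9 libraries were fitted with edgeR 4.0.16 (R 4.3.3; filterByExpr, TMM, quasi-likelihood F-test, group as the only term) with Benjamini-Hochberg adjustment over 12602 genes, at the study's thresholds (adjusted p under 0.01, absolute log2 fold change over 0.3). The study's own test was not repeated. A standard error is the absolute log2 fold change over the square root of F. Gene levels are CPM at the TMM library size, while shares, gains and losses use the library total. Library measures were compared with exact two-sided permutation tests. Intervals (exact binomial, 95%) and the floor of 3 counts cover counting error only. The script was tested on simulated data. Symbols came from the ID and name columns of a study table, of which 1999 rows were held here and 284 were not; 1981 had a symbol and 1839 of these were tested. Promoters came from RefSeq (GRCr8), matched by symbol.

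Genes were named by rule, among genes whose TL and vehicle libraries do not overlap: the 8 largest gains and losses in CPM with a symbol, the 10 highest switched-on and 6 switched-off genes, the 8 steepest graded rises and falls at 10 CPM or more in every vehicle library, and up to 4 called members of each list by adjusted p. Other genes were named after their values were seen. Members, lists and rules were chosen with earlier results of these data known. Alternatives were RLE and upper quartile normalization, no filter and a filter of 10 counts in every library, DESeq2 1.42.0, limma-voom 3.58.1, robust edgeR, a fit of 6 libraries, a replicate block, other limits of silence, and leaving out each library.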

Additional observations from a re-analysis of the deposited data

How the results depend on the processing

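Of 88 named genes, none lost its call or changed direction in any of 1303 fits of a gene under an alternative. Genes that an alternative filter removed gave no value. The 88 were chosen for large or clear changes without overlap of libraries, which favoured this outcome in advance. Over all genes, 1748 of the 2450 called were called again without TL replicate 2, the fewest, and 2435 with robust edgeR, the most. With only the 6 TL and vehicle libraries the number was 2023. Counts of calls over all genes stayed within 1.5 times their main value under every alternative except the limit of silence: with under 0.25 CPM, 12 genes were switched on and 0 switched off. Leaving out 1 library gave 949 to 1345 genes called higher, 836 to 1361 called lower, 22 to 29 switched on and 13 to 15 switched off. The share of counts of genes called higher in TL libraries was 6.87% with a log2 fold change of at least 1, 26.0% on TMM-normalized CPM, 24.5% with limma-voom calls and 21.1 to 27.2% without 1 library. That of genes called lower was 0.262%, 6.61%, 6.04% and 5.08 to 6.91% in the same order. The gain was 49403 CPM with a log2 fold change of at least 1, 114604 on TMM-normalized CPM and 89600 to 96954 without 1 library. The loss was 4450, 32488 and 33962 to 44573 CPM in the same order. With a log2 fold change of at least 1, 0.5 of the gain lay in 16 genes and 0.5 of the loss in 21; without 1 library these were 49 to 59 and 58 to 116. The 10 highest genes of a library held less with TL (a difference of −0.61 points) where the 100 highest held more (1.11 points; 0.821 to 1.66 without 1 library). The cause was not tested. Deviations of same-numbered TL and vehicle libraries from their group means had correlations of 0.026, 0.078 and 0.049. For TL and vehicle libraries of different numbers the correlations ran from −0.0998 to 0.0476. Whether the numbers pair the libraries cannot be settled from such small values. With a replicate block 1168 genes were called higher and 1088 lower, which changed no call of a named gene. Counts over lists moved further: 4 mitosis genes were called lower without TL replicate 2 (13 with all libraries), 5 macrophage genes without TL replicate 3 (9), and 11 of 12 cytokine genes were called higher with a filter of 10 counts in every library (17 of 18). With no filter, with DESeq2 or without vehicle replicate 2, 1 mitosis gene was called higher and 2 chaperone genes lower (1). Of the 2 lysosome genes that rose, 1 was called under 8 alternatives. How calls depend on depth was not tested.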
